A study of Enchytraeus crypticus with 60 samples.

Results

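Worms of the species Enchytraeus crypticus from silver-treated soil gave 100 array probes with lower levels than their controls at 3 d under each of 4 silver materials, and with little mean difference at 7 d. The members were chosen from their measured values. A level is log2 of the processed signal minus the median of the array, over the 23179 of 43750 gene probes that were positive and significant against background on all 60 arrays. A difference is the mean level of a treatment minus the mean level of its control on the same day. Probes were eligible where the 16 differences did not all have one sign and where the mean of the 8 differences at 7 d was under 0.25 in size, which left 13610 probes. The members are the 100 eligible probes with the lowest score, and the score is the mean difference at 3 d (over both doses) of the material with the smallest lowering.

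The animals were pools of 20 whole adult worms with a well-developed clitellum, kept in LUFA 2.2 soil without food, and each of the 20 groups had 3 arrays, 1 per replicate pool. The treated groups had Ag NM300K, AgNO3, coated particles (Ag-NPs PVP-Coated) or particles without a coat (Ag-NPs Non-Coated), each at the concentration for a 50% (EC50) and a 20% (EC20) effect on reproduction, for 3 and for 7 d. The control of Ag NM300K was soil with the dispersant (dispersant soil), and the control of the other materials was un-spiked soil, also at 3 and at 7 d. Each control served several treatments, so that comparisons with one control share its 3 arrays. A whole-body pool holds all tissues, and no marker list could be used to check them, since the files pair probes with sequence identifiers and with no gene name. In such pools, fewer cells of a type and less RNA per cell cannot be told apart.

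Enchytraeids are small white segmented worms that live in the litter and upper soil and take part in the breakdown of organic matter, and they are standard animals for testing soil contaminants. Silver nitrate dissolves readily and gives silver ions, which bind to sulfur groups of proteins, while nanoparticles release ions more slowly. Polyvinylpyrrolidone (PVP) is a polymer that is used to coat particles and keep them from clumping. Ag NM300K is a reference nanosilver that is supplied as a dispersion, which is the reason for a control with the dispersant alone. No role is given here to a single member, because its identifier names a contig of assembled sequence or carries a code of the kind given to single sequence reads.

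Between 66.9% and 97.7% of the gene probes of an array were above background, no gene spot was saturated, and no member carried an outlier flag on any array. The number of arrays limits the precision. The arrays lay on 16 slides with 2 to 4 arrays each and were scanned on 4 days. Deviations of arrays from their group means, taken over all 23179 probes, correlated at a mean of 0.264 between arrays of different groups on one slide and at -0.013 between arrays on different slides.

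The mean level of the members over the 60 arrays had a median of 0.36, with a lowest of -2.98 and a highest of 5.92, beside a median of -0.03 over all kept probes. Of the 100 members, 51 stood for contigs, beside 48.2% of all kept probes. Each identifier had 1 probe, so no 2 members shared one. Different contigs or reads may stem from 1 transcript, which could not be checked, so that the members may stand for fewer genes than probes. Of the members, 69 were well above background on all 60 arrays, beside 71.8% of all kept probes, and the dimmest were well above background on 40 arrays. For 2 members no array of un-spiked soil at 7 d was well above background, so that their level there, though significant against background, is imprecise.

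Members differed widely between pools of one group. The standard deviation within groups, pooled over the 20 groups, had a median of 0.737 over the members and of 0.358 over all kept probes, and it exceeded that overall median in 96 of the 100 members. Choosing extreme differences between means of 3 arrays favours probes with a large spread, so that this excess is a description and no independent property of the members.

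The spread was shared by most members. The deviation of each member from its group means was correlated, over the 60 arrays, with the mean deviation of the other 99. For 79 members this correlation lay between 0.590 and 0.982, and for 70 of them it was above 0.8. For the other 21 members it lay between -0.254 and 0.222, with no member in between. The 79 are called the co-varying members below and the 21 the remaining members, a division at 0.5 that was made after the values had been seen. The mean pairwise correlation of deviations was 0.824 among the co-varying members, 0.135 among the remaining members and 0.0125 over all kept probes. The points share arrays, slides and groups, and the correlations are descriptions.

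**Figure D1:**
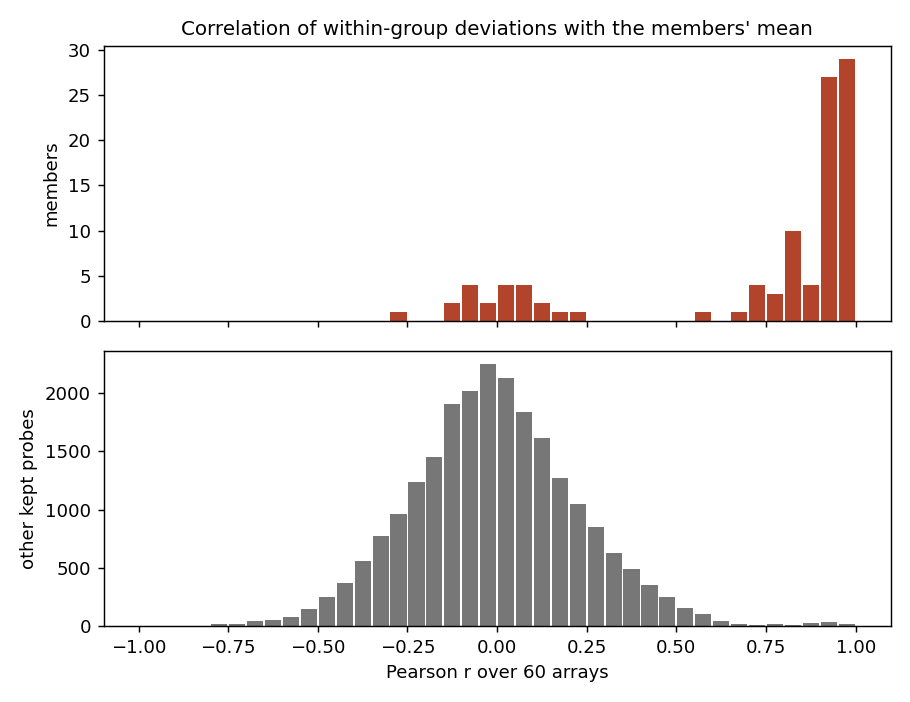
Histograms of Pearson correlations of deviations from group means over 60 arrays, for the 100 members against the mean of the other members (top) and for the other 23079 kept probes against the mean of the 79 co-varying members (bottom), with the number of probes on the vertical axes. The members fall into 79 at 0.590 or above and 21 at 0.222 or below, while the other kept probes centre on a median of -0.014.

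The co-varying members also moved together on arrays other than the 3 d controls. Without the 6 control arrays of 3 d, their mean pairwise correlation was 0.777 over 54 arrays, beside 0.0125 over all kept probes. It was 0.839 over the 24 silver arrays of 3 d, beside 0.0137, and 0.657 over the 30 arrays of 7 d, beside 0.0129. Among the 23079 kept probes that are not members, 93 followed the co-varying members with a correlation above 0.8, and 50 ran against them with a correlation below -0.7. Of those 93 probes, 73 met the sign and 7 d conditions and were left out by their score alone. The closest was GYUW2K401BZU8E (probe CUST_81230_PI427420766_b, r = 0.972), which was also the first probe outside the list. The next were GYUW2K402HIGH0 (r = 0.969) and GYUW2K402GC0AG (r = 0.968). The probe that ran most strongly against them was GYUW2K402HKV79 (r = -0.880). Contigs made up 49.4% of the co-varying members and 57.1% of the remaining members.

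The co-varying members were high on only part of the 3 d control arrays. Their mean level on the 18 arrays of 3 d with AgNO3 or Ag-NPs had a median of 1.17, with a lowest of -0.37 and a highest of 2.50, against 1.06, 3.21 and 2.55 on the arrays of un-spiked soil (replicates 1, 2 and 3). On the 6 arrays of Ag NM300K at 3 d it had a median of 0.79, with a lowest of -0.72 and a highest of 1.60, against 0.80, 3.54 and 1.95 in dispersant soil. Replicate 1 of each control thus lay among the silver arrays. Each of the 8 treated groups overlapped its control in this mean level, also the lowest ones, Ag-NPs PVP-Coated EC50 with 1.14, -0.37 and 0.79 and Ag NM300K EC20 with 0.94, 0.64 and 0.03.

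The mean level of the remaining members varied less between control arrays. They correlated weakly with each other, so that swings of single members average out in this mean. The within-group standard deviation had a median of 0.534 over the remaining members and of 0.759 over the co-varying ones. It was highest of all members, at 0.914, for contig00313, a remaining member with -2.48, -2.79 and -0.50 in un-spiked soil at 3 d. The mean level of the remaining members at 3 d lay between -1.31 and -0.30 on the 18 arrays with AgNO3 or Ag-NPs, against 0.07, 0.30 and 0.38 in un-spiked soil. It lay between -0.90 and -0.34 on the 6 arrays of Ag NM300K, against 0.42, 0.30 and -0.13 in dispersant soil. The silver arrays and the control arrays of 3 d did not overlap in this mean, which the choice of members favoured. On all 54 arrays other than the 3 d controls, the highest value was -0.30. Of the 21 remaining members, 16 had their 2 highest group means of 20 in the 2 controls of 3 d, and of the 79 co-varying members 71 did, beside 4.68% of all kept probes. The rule used these means, and nothing is read from the counts.

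**Figure D2:**
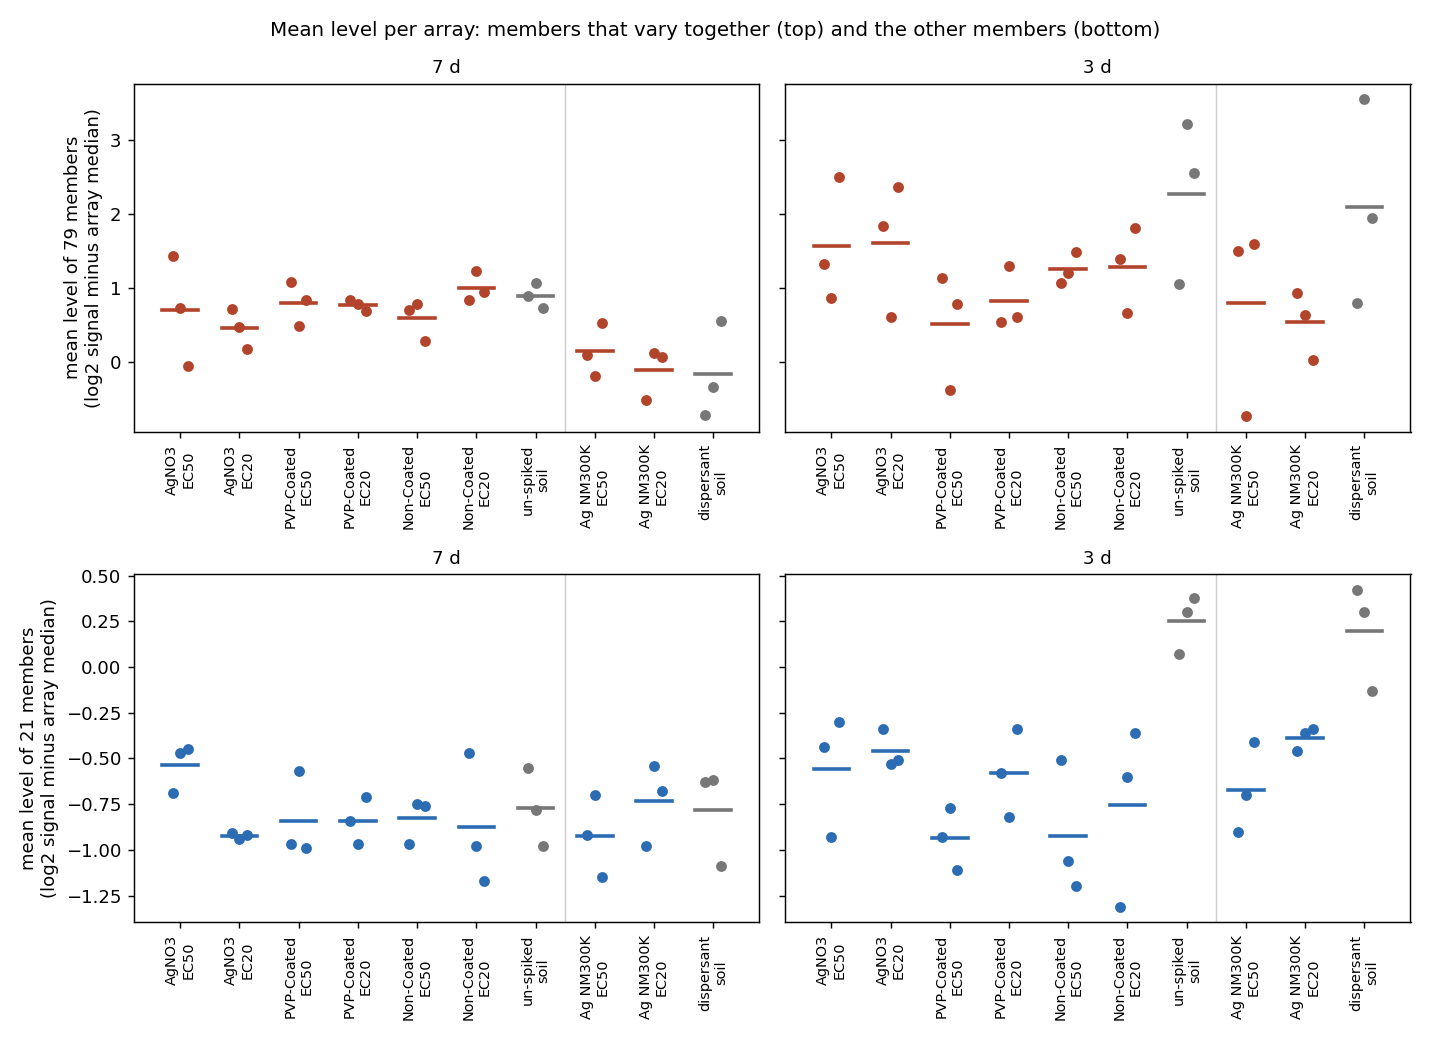
Mean level per array (log2 signal minus array median, vertical axes) of the 79 co-varying members (top) and the 21 remaining members (bottom) at 7 d (left) and 3 d (right), with treatments in colour, controls in grey, 1 point per array and a bar at the mean of 3. The co-varying members reached 3.21 and 3.54 on single control arrays of 3 d but 1.06 and 0.80 on others, while the remaining members lay at -0.30 or below on all silver arrays and on the 7 d controls, against -0.13 or above on the 6 control arrays of 3 d.

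The values that chose the members are given as a description, with no test. The score was lowest for GYUW2K401DFQCE (probe CUST_54748_PI427420766_b), at -1.08, followed by contig06035 at -1.02, contig14306 at -0.94, GYUW2K401A71EO at -0.92 and contig00313 at -0.89. The next were GYUW2K401CGI0H at -0.83, GYUW2K402F8FU9 at -0.82, GYUW2K401DKWQ4 at -0.80, GYUW2K401DOVQQ at -0.79 and contig17491 at -0.78. Of these 10, contig14306, contig00313 and GYUW2K401DKWQ4 belong to the remaining members, and the other 7 co-vary. The last members inside the list were contig21088 at -0.518, GYUW2K401EIMQ4 at -0.517 and contig12219 at -0.517. The first probes outside it were GYUW2K401BZU8E at -0.514, contig11562 at -0.510 and contig26017 at -0.510. The list therefore ends in a continuous run of scores and not at a gap.

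All 100 members had a negative difference in each of the 8 comparisons at 3 d. The median difference of the members was -0.73 for AgNO3 EC50 and -0.65 for AgNO3 EC20. It was -1.75 and -1.43 for Ag-NPs PVP-Coated EC50 and EC20, and -1.04 and -1.0 for Ag-NPs Non-Coated EC50 and EC20. For Ag NM300K it was -1.20 at EC50 and -1.30 at EC20, against dispersant soil. The median over all kept probes lay between -0.05 and 0.05 in these comparisons. Under SVCD, the normalization that the study describes, the medians of the members were -0.48 and -0.47 for AgNO3 EC50 and EC20, -1.23 and -1.13 for the same doses of Ag-NPs PVP-Coated, -0.52 and -0.72 for those of Ag-NPs Non-Coated, and -1.24 and -1.29 for those of Ag NM300K. With slide as a block they were -0.18 at EC50 and -0.23 at EC20 of AgNO3, and -1.21 and -0.83 for the same doses of Ag-NPs PVP-Coated. In that fit they were -0.40 and -1.11 for those of Ag-NPs Non-Coated, and -1.28 and -0.80 for those of Ag NM300K. With normexp the median at EC50 of Ag-NPs PVP-Coated was -0.97. AgNO3 gave the smallest lowering of the 4 materials in 74 members, and Ag-NPs PVP-Coated the largest in 59. Within EC20 or EC50 the silver concentrations of the materials differ, except at EC20 of the coated and non-coated particles. AgNO3 EC50 and Ag NM300K EC20 also had the same nominal concentration, but different controls. These medians stand side by side and were not compared.

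**Figure D3:**
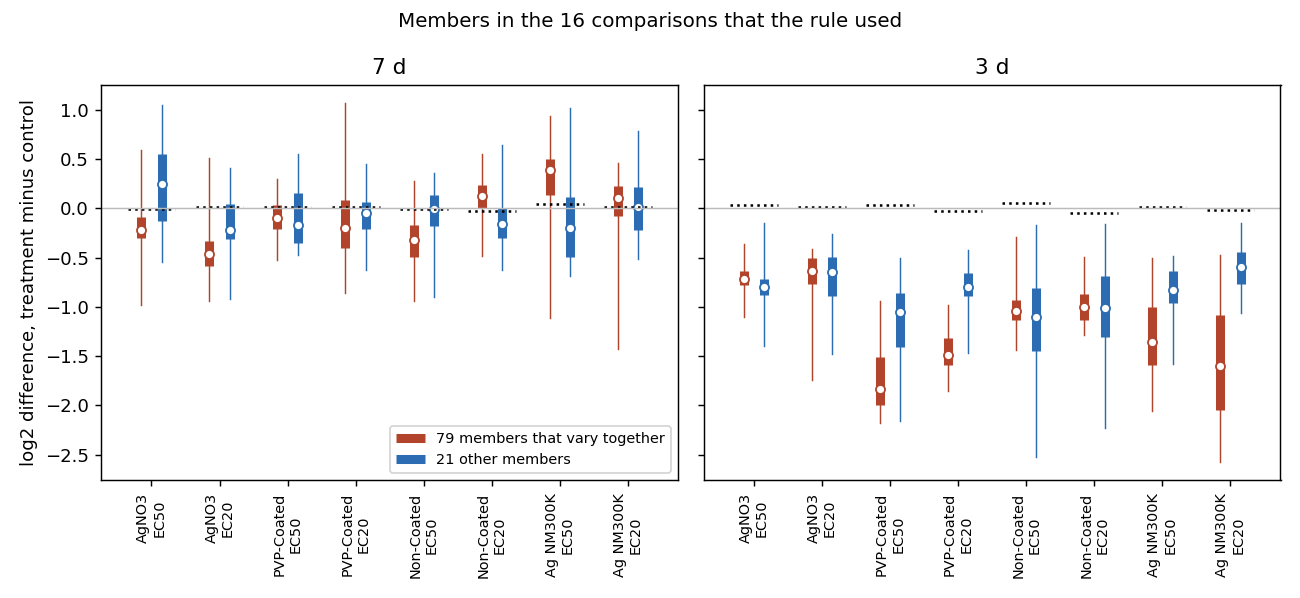
Log2 difference of treatment minus control (vertical axis) at 7 d (left) and 3 d (right) for the 79 co-varying members (red) and the 21 remaining members (blue), with a circle at the median, a thick bar between the quartiles and a thin line over the range, and a dotted line at the median of all kept probes. Medians of all members run from -1.75 to -0.65 at 3 d and from -0.42 to 0.32 at 7 d.

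The co-varying and the remaining members differed most under Ag-NPs PVP-Coated and Ag NM300K EC20. With Ag-NPs PVP-Coated EC50 the co-varying members had a median difference of -1.83 and the remaining members one of -1.05, and with Ag NM300K EC20 the medians were -1.60 and -0.60. With AgNO3 EC20 they were -0.64 and -0.65, and with Ag-NPs Non-Coated EC20 -1.0 and -1.01. The standard error of a difference had a median of 0.60 over the co-varying members, 0.42 over the remaining members and 0.29 over all kept probes.

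Calls were made by limma at a false discovery rate of 5%, with adjustment over all 23179 probes. With Ag-NPs PVP-Coated EC50 at 3 d, 68 members were called lower, of which 56 co-vary, where 5.2% of all kept probes were called lower. In the other comparisons at 3 d the members called lower numbered 0 for AgNO3 EC50 (0.293% of all kept probes), 1 for AgNO3 EC20 (0.802%), 2 for Ag-NPs PVP-Coated EC20 (0.552%), 9 for Ag-NPs Non-Coated EC50 (3.9%), 6 for Ag-NPs Non-Coated EC20 (0.962%), 2 for Ag NM300K EC50 (0.742%) and 6 for Ag NM300K EC20 (0.764%). Of the 100 members, 69 were called in at least 1 comparison, 2 in 4 or more and none in all 8. Since the rule used these contrasts, the counts are a description. The share of all kept probes was not computed for these counts over several comparisons. It was not computed either for the counts below, with an array left out or slide as a block. Whether the members or all probes moved is thus not shown. The count of 68 became 8 without replicate 2 of un-spiked soil, 7 without replicate 3, 86 without replicate 1 and 5 with slide as a block. The smaller counts also turned on single arrays. Ag-NPs PVP-Coated EC20 had 51 members called without replicate 1 of un-spiked soil and 0 without replicate 2. Ag NM300K EC20 had 42 without replicate 1 of dispersant soil and 0 without replicate 3, and Ag NM300K EC50 had 8 without replicate 1. With any single array left out, the counts with Ag-NPs Non-Coated ran between 1 and 14 at EC50 and between 0 and 9 at EC20, and they were between 0 and 1 for AgNO3 EC50 and 1 and 4 for AgNO3 EC20.

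The 3 treated arrays lay below the 3 control arrays for 44 members with Ag-NPs PVP-Coated EC50 (16.7% of all kept probes) and 22 with EC20 (9.17%). The members without overlap numbered 8 with AgNO3 EC50 (5.92%), 6 with AgNO3 EC20 (5.75%), 20 with Ag-NPs Non-Coated EC50 (14.7%), 16 with Ag-NPs Non-Coated EC20 (10.3%), 11 with Ag NM300K EC50 (5.41%) and 24 with Ag NM300K EC20 (7.01%). The 18 arrays with AgNO3 or Ag-NPs all lay below the 3 arrays of un-spiked soil for 2 members, contig16283 and contig21612, beside 0.79% of all kept probes, and neither co-varies. The 6 arrays of Ag NM300K all lay below the 3 of dispersant soil for 7 members, of which 1 co-varies, beside 2.36% of all kept probes. Among the members, both held for contig16283 alone. contig16283 and contig21612 were named after their values had been seen.

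The member with the highest level in un-spiked soil at 3 d, contig08480 (probe CUST_23018_PI427420766_b), shows the pattern of the co-varying members. Its level at 3 d was 6.05, 4.59 and 5.63 on the arrays of Ag-NPs PVP-Coated EC50 and 5.81, 6.48 and 5.57 on those of EC20, against 6.30, 8.72 and 7.74 in un-spiked soil. It was 6.61, 5.81 and 8.22 with AgNO3 EC50 and 7.56, 5.87 and 8.09 with AgNO3 EC20. The AgNO3 arrays thus reached into the range of the un-spiked arrays. With Ag-NPs Non-Coated it was 6.32, 6.25 and 6.82 at EC50 and 6.53, 5.56 and 6.80 at EC20. With Ag NM300K it was 6.89, 3.93 and 6.75 at EC50 and 6.06, 5.67 and 3.80 at EC20, against 6.12, 9.25 and 7.86 in dispersant soil. The arrays of Ag-NPs PVP-Coated EC50 and of Ag NM300K EC20 all lay below their control arrays, and the other 6 groups overlapped their controls. The difference was -2.17 ± 0.68 with the higher dose of Ag-NPs PVP-Coated and -2.57 ± 0.68 with Ag NM300K EC20 (SE of the fit, 3 arrays against 3), and -0.41 ± 0.68 for AgNO3 EC20. The others of the 5 brightest members, GYUW2K402HQBHT, GYUW2K401DZIQA, GYUW2K402F8FU9 and GYUW2K401BESAT, also co-vary.

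GYUW2K401DFQCE, the member with the lowest score, varied widely between the arrays of AgNO3 EC20. Its score is the mean difference of Ag-NPs Non-Coated, whose arrays had 2.26, 2.20 and 2.53 at EC50 and 2.40, 1.72 and 2.93 at EC20. Its level was 2.18, 2.00 and 3.70 with AgNO3 EC50 and -0.55, 1.96 and 3.64 with AgNO3 EC20, against 1.89, 4.57 and 3.80 in un-spiked soil. Replicate 1 of AgNO3 EC20 lay lowest of all 60 arrays, and the control arrays spanned all 3 of AgNO3 EC50. The mean was 1.46 ± 0.72 with Ag-NPs PVP-Coated EC50 and 1.91 ± 0.38 with EC20, against 3.42 ± 1.38 in un-spiked soil (SD, n = 3 each). For Ag NM300K it was 1.91 ± 1.24 at EC50 and 1.45 ± 0.98 at EC20, against 3.30 ± 1.53 in dispersant soil. Another member, GYUW2K401B33SZ, had similar levels in un-spiked soil at 3 d (1.92, 4.58 and 3.71). With AgNO3 EC20 it had 3.08, 1.98 and 3.62, so that the low value on replicate 1 was not shared by it. Its mean difference with AgNO3 at 3 d was -0.65, against -1.27 for GYUW2K401DFQCE. The reason was not tested.

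contig14306 (probe CUST_16722_PI427420766_b), the third by score, does not co-vary. Its level with AgNO3 was -0.63, -1.08 and -0.20 at EC50 and -1.06, -1.31 and -0.85 at EC20, against 0.25, 0.73 and -0.46 in un-spiked soil at 3 d. One AgNO3 EC50 array lay above the lowest control array, and the other 5 lay below all 3. Its differences from un-spiked soil lay between -1.25 ± 0.25 (SE) with AgNO3 EC20 and -0.81 ± 0.25 with AgNO3 EC50 and Ag-NPs Non-Coated EC50. With Ag NM300K it was -1.20, -1.0 and -1.36 at EC50 and -1.02, -0.41 and -0.50 at EC20, against 0.22, 0.14 and 0.82 in dispersant soil, and here the groups did not overlap. At 7 d its level was between -2.19 and -1.14 in all 18 arrays with AgNO3 or Ag-NPs, and -1.30, -1.57 and -1.21 in un-spiked soil.

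contig16283 (probe CUST_14524_PI427420766_b) was lower on every silver array of 3 d than on every array of its control. Its level with Ag-NPs PVP-Coated was 0.39, 0.39 and 0.31 at EC50 and 0.60, 0.88 and 0.99 at EC20, against 1.66, 1.65 and 1.79 in the un-spiked pools of 3 d. The AgNO3 levels were 1.04, 0.49 and 0.94 at EC50 and 1.32, 1.47 and 1.19 at EC20. All of these lay below the controls, the AgNO3 EC20 arrays nearest to them. With Ag-NPs Non-Coated it was 1.0, 0.13 and 0.24 at EC50 and -0.06, 0.36 and 0.87 at EC20. With Ag NM300K it was -0.12, 0.63 and 0.82 at EC50 and 0.89, 0.82 and 0.18 at EC20, against 1.12, 1.93 and 1.15 in dispersant soil. At 7 d its mean lay between -0.20 and 0.30 in all 10 groups.

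**Figure D4:**
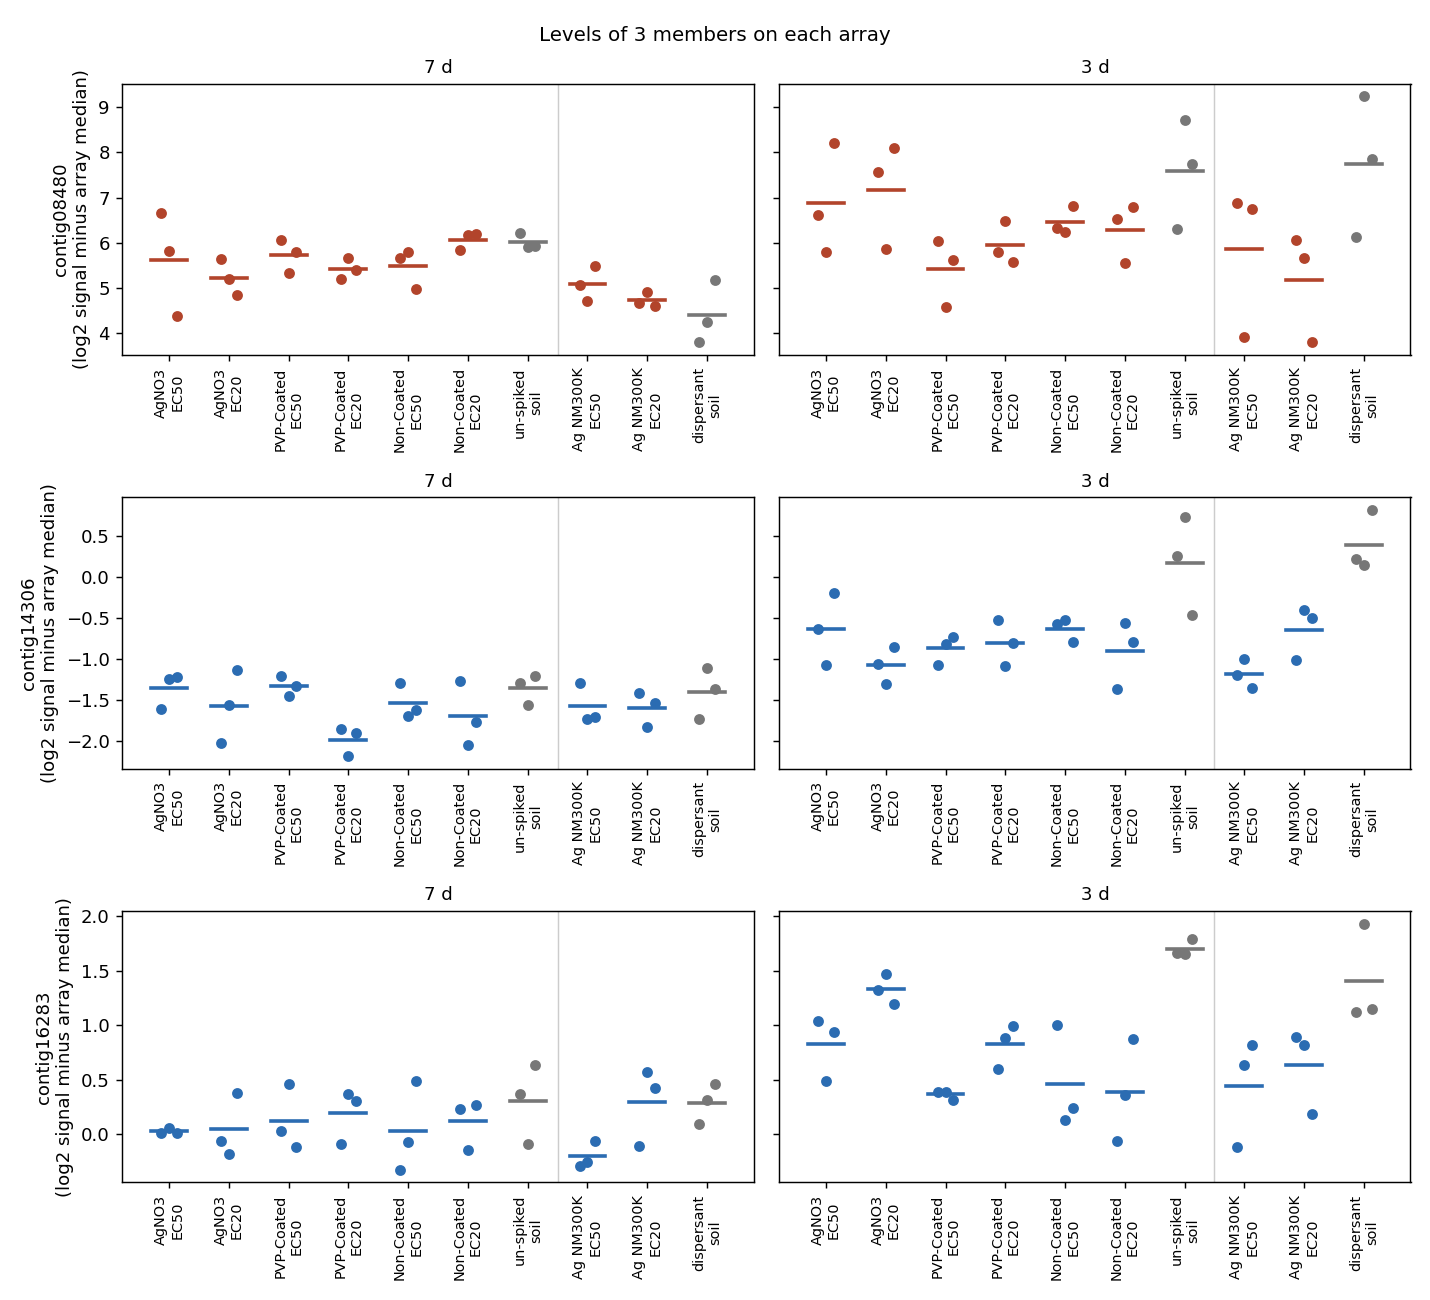
Level per array (log2 signal minus array median, vertical axes) of contig08480, contig14306 and contig16283 at 7 d (left) and 3 d (right), with treatments in colour, controls in grey, 1 point per array and a bar at the mean of 3. The un-spiked arrays of 3 d span 6.30 to 8.72 for contig08480 but 1.65 to 1.79 for contig16283.

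The controls themselves differed between the times, by values that enter the rule and were not tested. In un-spiked soil 99 of the 100 members were lower at 7 d than at 3 d, with a median difference of -1.34, beside -0.02 over all kept probes. In dispersant soil 99 were lower, with a median of -2.10, beside -0.06. The co-varying members had a mean level of 0.90 ± 0.17 at 7 d, against 2.27 ± 1.10 at 3 d, in un-spiked soil, and of -0.16 ± 0.65 at 7 d, against 2.10 ± 1.37 at 3 d, in dispersant soil (SD, n = 3 arrays). The remaining members had -0.77 ± 0.22 at 7 d, against 0.25 ± 0.16 at 3 d, in un-spiked soil and -0.78 ± 0.27, against 0.20 ± 0.28, in dispersant soil. The exception in both controls was contig21088, with 1.29 ± 0.18 at 7 d, against 0.61 ± 0.31 at 3 d, in un-spiked soil, and 1.12 ± 0.40, against 0.36 ± 0.26, in dispersant soil.

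The treated groups had smaller median differences between the times than their controls, 7 of the 8 in the same direction, which was not tested. The median difference of the members, 7 d minus 3 d, was -0.73 with AgNO3 EC50 and -1.10 with AgNO3 EC20, 0.27 and -0.11 with Ag-NPs PVP-Coated EC50 and EC20, -0.62 and -0.30 with Ag-NPs Non-Coated EC50 and EC20, and -0.64 and -0.59 with Ag NM300K EC50 and EC20. Thus the small differences between treatment and control at 7 d went with lower levels in the 7 d controls, and with Ag-NPs PVP-Coated EC50 also with higher levels in the treated pools. The mean of the co-varying members on the 18 arrays with AgNO3 or Ag-NPs had a median of 0.76 at 7 d, against 1.17 at 3 d.

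At 7 d the rule held the mean of the 8 differences of a member between -0.25 and 0.24, and it was negative in 76 members. The median of the members was -0.19 and -0.42 with AgNO3 EC50 and EC20, -0.13 and -0.16 with Ag-NPs PVP-Coated EC50 and EC20, and -0.25 and 0.07 with Ag-NPs Non-Coated EC50 and EC20. With Ag NM300K it was 0.32 at EC50 and 0.08 at EC20. No member was called by limma at a false discovery rate of 5% in any of the 8 comparisons, where the share of all kept probes called was 0.112% and 0.0345% with AgNO3 EC50 and EC20, 5.18% and 1.39% with Ag-NPs PVP-Coated, 0.772% and 0.712% with Ag-NPs Non-Coated, and 0.876% and 0.229% with Ag NM300K. At an unadjusted p under 0.05 in the fit over all arrays, 2 members passed with AgNO3 EC50, beside 6.7% of all kept probes. At most 1 passed in each of the others, beside 5.51% to 19.6% of all kept probes. By the methods' t-test on the compared arrays alone, 24 passed with AgNO3 EC20 and 18 with Ag-NPs PVP-Coated EC20, at most 6 in each of the others, and none after adjustment. With AgNO3 EC20, 33 members, 32 of them co-varying, had all 3 treated arrays below all 3 controls, beside 7.22% of all kept probes. This held for 19 members with Ag-NPs PVP-Coated EC20 (11.9%) and 18 with Ag-NPs Non-Coated EC50 (10.8%). In each of the other comparisons at 7 d it held for at most 4 (7.02% to 12.8%). Since the 32 share their variation, they are not independent.

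The remaining comparisons were not fixed by the rule and were tested. The higher dose was set against the lower one in each material. No member was called between EC50 and EC20 at 3 d or at 7 d in any material (limma, false discovery rate 5%, adjustment over all kept probes), where 0.285% of all kept probes were called with AgNO3 at 3 d and 0% in the other 7. At an unadjusted p under 0.05, between 0 and 5 members passed, beside 2.17% to 8.66% of all kept probes. By the methods' t-test between 0 and 9 passed, with no share of all kept probes computed. At 3 d the median difference of the members, EC50 minus EC20, was -0.10 with AgNO3, -0.33 with Ag-NPs PVP-Coated, -0.03 with Ag-NPs Non-Coated and 0.15 with Ag NM300K. At 7 d it was 0.29, 0.09, -0.40 and 0.23 in the same order of materials. With a median standard error of 0.60 for a co-varying member, a difference of this size was not detectable. Several signs turned with slide as a block, where the medians at 3 d were 0.10 with AgNO3, -0.45 with Ag-NPs PVP-Coated, 0.72 with Ag-NPs Non-Coated and -0.50 with Ag NM300K, and at 7 d that of Ag-NPs PVP-Coated was -0.40. For contig16283 the difference at 3 d was -0.50 ± 0.26 with AgNO3 (adjusted p = 0.603) and -0.46 ± 0.26 with Ag-NPs PVP-Coated (adjusted p = 0.999).

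At 7 d, 24 members had all 3 arrays of Ag-NPs Non-Coated EC50 below all 3 of EC20, and all 24 co-vary, beside 1.54% of all kept probes. None was called, and the 24 are not independent, since they share their variation. The change of the dose effect between 7 d and 3 d called no member either, where 0.0129% of all kept probes were called with AgNO3 and 0% with the other materials. At an unadjusted p under 0.05, 3 members passed with AgNO3 (6.26% of all kept probes) and 0 with Ag NM300K (1.85%). With each kind of Ag-NPs 1 passed (4.34% for the coated and 2.94% for the non-coated particles). The median change of the dose effect with Ag-NPs Non-Coated was -0.35, and -1.21 with slide as a block.

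Coated and non-coated particles had the same nominal silver concentration at EC20, and differ in the PVP coat. No member was called between them at 3 d or at 7 d (limma, false discovery rate 5%), and 0% of all kept probes were. At an unadjusted p under 0.05, 1 member passed at 3 d (2.12% of all kept probes) and 0 at 7 d (4.16%). By the methods' t-test 3 passed at 3 d and 18 at 7 d, with no share of all kept probes computed, and none after adjustment. The median difference of the members, coated minus non-coated, was -0.43 at 3 d, with single members between -0.77 and 0.86, and -0.21 at 7 d, with single members between -0.91 and 0.80. With slide as a block the median was 0.30 at 3 d, the opposite sign, and -0.04 at 7 d. For contig08480 it was -0.34 ± 0.68 at 3 d and -0.65 ± 0.68 at 7 d (adjusted p = 1 in both), with 95% intervals of -1.71 to 1.02 at 3 d and -2.02 to 0.72 at 7 d. The co-varying members had a mean level of 0.82 ± 0.42 with the coated particles, against 1.29 ± 0.58 with the non-coated ones, at 3 d, and of 0.77 ± 0.08, against 1.01 ± 0.20, at 7 d (SD, n = 3). At 7 d, 25 members, all co-varying, had the 3 coated arrays below the 3 non-coated ones, beside 2.89% of all kept probes. These members share their variation and are not independent.

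Of these 12 comparisons the median difference of the members was farthest from 0 between the controls at 7 d (-0.98), but not with slide as a block, where it was -0.69 and that of dose with Ag-NPs Non-Coated at 3 d was 0.72. In dispersant soil the co-varying members had mean levels of -0.71, -0.33 and 0.56 on the 3 arrays, against 0.90, 1.07 and 0.73 in un-spiked soil at 7 d, and the arrays did not overlap. Their median difference was -1.18, while that of the remaining members was 0.03. All 3 dispersant arrays lay below all 3 un-spiked arrays for 50 members, of which 49 co-vary, beside 4.12% of all kept probes. The 49 are not independent, since they share their variation, and the same holds for the counts of members below. No member was called by limma after adjustment over all kept probes, and 0% of all kept probes were. At an unadjusted p under 0.05, 37 members passed, beside 3.57% of all kept probes, and 0 passed with slide as a block, 8 after normexp, 56 when the day of scanning was the block, and 57 where only the compared groups were fitted. With single arrays of 7 d left out, 2 passed without dispersant replicate 1, 11 without dispersant replicate 2, 19 without un-spiked replicate 1 and 17 without un-spiked replicate 2. The count was 50 without dispersant replicate 3 and 33 without un-spiked replicate 3. Among these counts the share of all kept probes was computed for the 37 alone. For contig08480 the difference was -1.62 ± 0.68 (adjusted p = 1), with 3.80, 4.26 and 5.17 in dispersant soil, against 6.23, 5.91 and 5.94 in un-spiked soil.

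**Figure D5:**
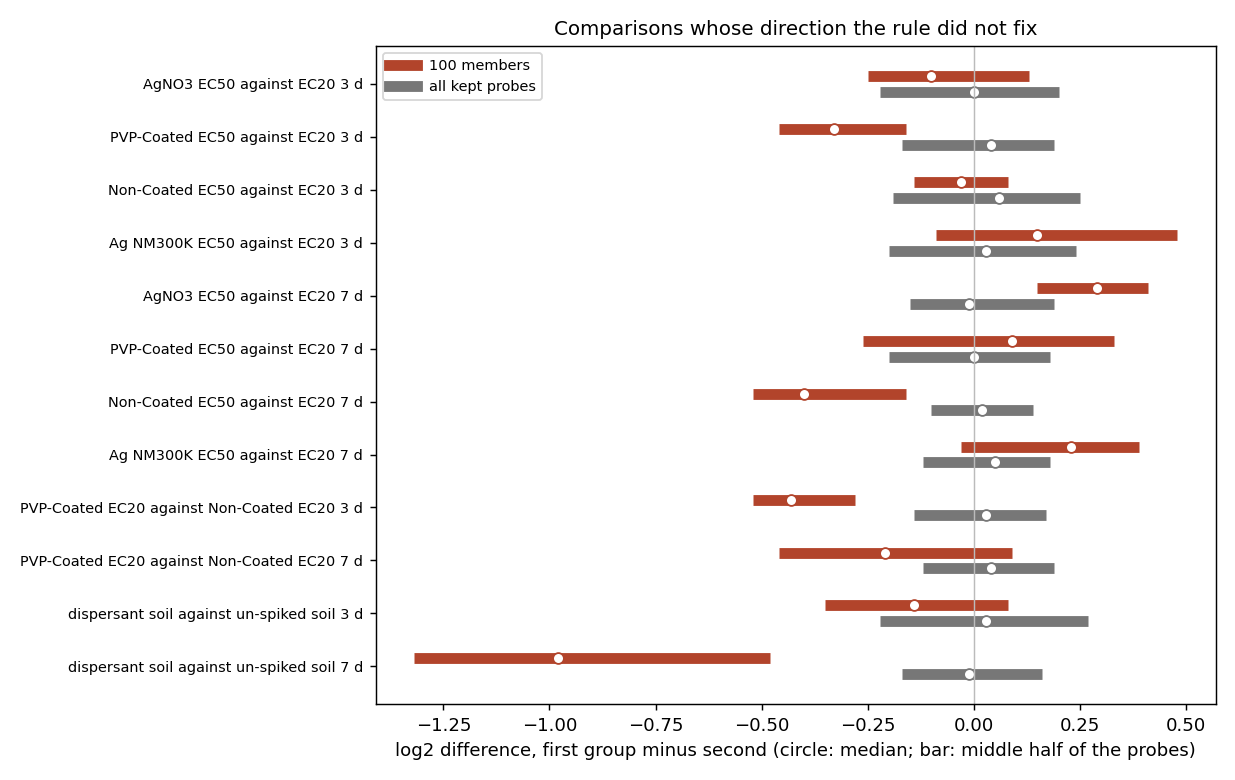
Log2 difference of the first group minus the second (horizontal axis) in the 12 comparisons whose direction the rule did not fix, for the 100 members (red) and all kept probes (grey), with a circle at the median and a bar between the quartiles. The members lie farthest from 0 for dispersant soil against un-spiked soil at 7 d, with a median of -0.98 in the fit without a slide block (-0.69 with it, where Ag-NPs Non-Coated EC50 against EC20 at 3 d has 0.72), and no member was called in any of the 12.

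At 3 d the same controls were also compared. The median difference of the members, dispersant minus un-spiked, was -0.14, and no member was called, where 0.358% of all kept probes were. At an unadjusted p under 0.05, 0 members passed, beside 11.8% of all kept probes. At 7 d the co-varying members had mean levels with Ag NM300K of 0.15 ± 0.36 at EC50 and -0.10 ± 0.35 at EC20, against -0.16 ± 0.65 in dispersant soil (SD, n = 3). Thus all 9 arrays with dispersant at 7 d lay below all 3 un-spiked arrays of 7 d in this mean. The arrays of AgNO3 EC20 at 7 d, which had no dispersant, did so too, with 0.72, 0.47 and 0.18 against 0.73 on the lowest un-spiked array. No other group with AgNO3 or Ag-NPs lay wholly below it. The un-spiked arrays of 7 d shared no slide with an array with dispersant.

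In the co-varying members the arrays of a slide all deviated one way on 4 of the 16 slides. Slide 8, one of these, held replicate 3 of Ag-NPs Non-Coated EC20, of Ag NM300K EC50 and of un-spiked soil and replicate 2 of dispersant soil, all of 3 d. Its deviations from the group means in the co-varying members were 0.52 for Ag-NPs Non-Coated EC20, 0.81 for Ag NM300K EC50, 1.44 for dispersant soil and 0.28 for un-spiked soil. On slide 4 they were 0.94, 0.48, -0.28 and -1.52, and on slide 7 they were 0.93, -0.51, -0.75 and -1.29. Within a slide, a silver array of 3 d could be set against its own control 5 times. The median difference of the members was -1.86 for Ag-NPs PVP-Coated EC20 on slide 4, -0.86 for Ag NM300K EC20 on slide 7, and -0.73 for Ag-NPs Non-Coated EC20 and -1.76 for Ag NM300K EC50 on slide 8. On slide 11 it was 0.76 for AgNO3 EC20 against replicate 1 of un-spiked soil, with 0.89 for the co-varying and -0.21 for the remaining members. The part of the slide in the calls was not tested beyond the block.

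Single control arrays weighed on the median difference of the co-varying members and less on that of the remaining ones. Without replicate 2 of un-spiked soil, the median difference of the co-varying members with AgNO3 was -0.22 at EC50 and -0.14 at EC20, and without replicate 1 it was -1.35 and -1.25. For the remaining members the same medians were -0.79 and -0.71 without replicate 2, and -0.90 and -0.74 without replicate 1. For Ag NM300K, the co-varying members had -0.60 at EC50 and -0.85 at EC20 without replicate 2 of dispersant soil, and -2.01 and -2.23 without replicate 1. These medians stayed below 0 with each of the 6 control arrays of 3 d left out, although with AgNO3 EC20 only 60 of the 79 co-varying members did so without replicate 2 of un-spiked soil.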

How the data were processed

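RNA of replicate pools of 20 whole worms was labelled with Cy3 and hybridised to custom 1-colour Agilent arrays, of which 60 were used (20 groups of 3). The deposited files hold, per the file headers, scanner intensity values from Agilent Feature Extraction 10.7.3.1, and the processed signal intensity had been background-corrected by the authors' software. A deposited table of the same processed signals, rounded, was not used. The study's methods performed more replicate pools than were hybridised.

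The 23179 of 43750 gene probes with a positive, significant signal on each of the 60 arrays were kept, log2 signals were centred on each array's median, and group means were fitted with limma 3.58.1 in R 4.3.3. Outlier-flagged spots were left out of the fit (308 spots, none in a member). Calls were made at a false discovery rate of 5% by Benjamini-Hochberg over all kept probes. The fit was tested on simulated data. Replicate pools were taken as separate samples, as the labels give them. The members, the lists and the tests were chosen with earlier results of these data known. Named probes are the 10 members with the lowest scores, the 5 with the highest level in un-spiked soil at 3 d, up to 5 called members of each test (none was called), members sharing an identifier (none did), and the 3 members just inside and 3 probes just outside the limit. Probes named for their likeness to the co-varying members, and contig16283, contig21612 and GYUW2K401B33SZ, were chosen after their values had been seen. Alternatives were the standard-vector condition-decomposition (SVCD) normalization after the study's description, quantile normalization, the 75th percentile, normexp (on the median signals, with an offset of 50), other filters, slide, scan day or replicate as a block, a fit of the compared groups only, the methods' t-test and leaving out single arrays.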

Additional observations from a re-analysis of the deposited data

How the results depend on the processing

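The median number of members called lower at 3 d over the 8 treatments was 4. It was 3 with SVCD and 4 with the stricter background filter or with outlier spots kept. It was 2 with quantile normalization, 1.5 with the 75th percentile, 1 with normexp, 1 with no filter, 2.5 with slide and 2 with scan day as a block, 0 in the compared groups alone, 0 with the methods' t-test, and 1 without slide 8, an alternative chosen after seeing the data. Leaving out single arrays gave 1 (without replicate 2 of un-spiked soil) to 10.5 (without replicate 1). The 68 calls of Ag-NPs PVP-Coated EC50 became 25 with SVCD, 5 with normexp, 24 with no filter, 5 with slide as a block, 12 in the compared groups alone, 2 with the methods' t-test and 11 without slide 8, and 7 to 86 with single arrays left out. The cause was not tested.

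The replicate block gave a median of 2 calls, and 69 for Ag-NPs PVP-Coated EC50. Same-numbered pools deviated with a mean correlation of -0.000 at 3 d and 0.025 at 7 d, against 0.001 and -0.012 for pools with other numbers. Of 30 arrays, 12 at 3 d and 15 at 7 d correlated best with arrays of their own number. Pools were taken as unpaired, and whether the numbers pair them was not tested.

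Applied again, the rule found 65 of the 100 members with SVCD, 68 with the stricter background filter, 82 with the median over all gene probes, 87 with quantile normalization, and 28 (un-spiked soil of 3 d lacking replicate 2) to 100 without single arrays. With SVCD the median difference of all kept probes reached 0.57 at 3 d (Ag-NPs Non-Coated EC50, 0.54 for Ag-NPs PVP-Coated EC50), and 97 to 100 members stayed below 0 in each comparison of 3 d.

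The count of members called was 0 at 7 d as a median, and 0 in the tests of dose, coating, dispersant and change of the dose effect, under each alternative run. The t-test could not be run for the change of the dose effect. Of the medians over the members, 625 values under alternatives moved by less than 0.737 and 3 by more. This limit is the median replicate spread of a member. The 3 d median at EC50 of Ag-NPs PVP-Coated moved to -0.97 with normexp. With slide as a block, EC50 against EC20 of Ag-NPs Non-Coated moved to 0.72 at 3 d and its change between the times to -1.21. The limit exceeds most of the medians in size and ignores turned signs, so that the tally says little on stability. With slide as a block, -0.18 in place of -0.73 (AgNO3 EC50 at 3 d) stayed within it. So did 0.30 in place of -0.43 (coated against non-coated particles at EC20, 3 d). The score of contig14306 was -0.54 with SVCD, -0.49 with normexp and -1.29 without slide 8, and that of GYUW2K401DOVQQ was -0.09 with slide as a block. With slide as a block, scores turned positive for contig08480 (0.02), GYUW2K402HQBHT (0.07) and GYUW2K401BESAT (0.01). With single arrays left out, the score ran between -1.20 and 0.01 for contig08480, -1.26 and 0.13 for GYUW2K402HQBHT and -1.24 and 0.07 for GYUW2K401BZU8E, positive where un-spiked soil of 3 d lacked its replicate 2. It ran between -0.76 and 0.15 for contig26017 (positive without replicate 2 of dispersant soil) and between -0.65 and 0.22 for contig12219 (positive without replicate 3 of dispersant soil).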
